A study of Mus musculus with 8 samples.

Results

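The clustered replication-dependent histone genes code for the H1, H2A, H2B, H3 and H4 proteins that package DNA. They were taken as every protein-coding gene whose symbol begins with Hist1h, Hist2h, Hist3h or Hist4h in the GRCm38 annotation (GENCODE M21), which gave 67 of 54749 genes: 6 of H1, 18 of H2A, 18 of H2B, 12 of H3 and 13 of H4. Of these, 54 lie in the Hist1 cluster on chromosome 13, 10 in Hist2 on chromosome 3, 2 in Hist3 on chromosome 11 and 1, Hist4h4, on chromosome 6. RNA was sequenced from bone marrow LT-HSCs, the stem cells that repopulate blood over a long term, of mice aged 6 months. The control group was homozygous asrij floxed, with libraries numbered 1, 3, 4 and 5, and the other group was asrij KO, with libraries numbered 2, 3, 4 and 5, 1 library for each of 8 mice. The KO is a whole-body deletion, so cells other than HSCs lacked asrij too. Asrij, the mouse gene Ociad1, is a regulator of haematopoiesis on endosomes and mitochondria. The paper's methods give the sort for these libraries as LSK CD150+ CD48+ but for LT-HSCs in other assays as LSK CD150+ CD48-, so which of these gates the libraries hold is unsettled and LT-HSC is used here as the label. Mice of both sexes were used, and the methods do not state poly(A) selection or removal of ribosomal RNA.

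A dividing cell needs new histones for each copy of its genome, and these genes supply them in S phase, when their mRNAs rise sharply. Their mRNAs are unlike all others in animals in that most end in a short stem-loop instead of a poly(A) tail. SLBP binds the stem-loop and guides processing, export, translation and decay of the mRNA, and NPAT drives transcription of the clusters. The same genes can also give longer mRNAs with a poly(A) tail, which have been described in differentiating cells. Library kits that select poly(A) recover the stem-loop form poorly. LT-HSCs are mostly quiescent, so little of this mRNA is made in such cells at any time.

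The stem-loop was looked for on the sense strand of the transcript that gave each gene its count, by the 16-base histone stem-loop motif, in which the bases of the stem may vary. It was found in 43 of the 67 genes and in another transcript of 1 more, Hist1h2bp. Of the 23 without it, 11 have a model that ends with the coding sequence. Outside the family, 38 of 54682 genes (0.069%) held a match. The stem-loops of the genes that carry the results are shown, with Hist4h4 as the member outside the 3 larger clusters, in GRCm38 (GENCODE M21 transcripts), 5′ to 3′, with the stem arms in capitals.
Hist1h1c (chr13:23739505-23739534, plus strand): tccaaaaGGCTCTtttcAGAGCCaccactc
Hist1h2ag (chr13:22042476-22042505, minus strand): caacaaaGGCTCTtttcAGAGCCacctaac
Hist1h2ao (chr13:21810891-21810920, plus strand): aaaaaaaGGCTCTtttcAGAGCCatccaca
Hist2h2aa1 (chr3:96246025-96246054, plus strand): ctaaaaaGGCTCTtttcAGAGCCacccact
Hist1h4i (chr13:22040959-22040988, minus strand): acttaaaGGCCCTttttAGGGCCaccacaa
Hist4h4 (chr6:136803991-136804020, minus strand): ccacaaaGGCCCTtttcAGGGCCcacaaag

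The form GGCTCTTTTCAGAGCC was shared by 26 genes of H1, H2A, H2B and H3, and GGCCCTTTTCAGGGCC by 7 genes of H4. The form of Hist1h4i, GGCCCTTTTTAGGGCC, was found in 2 genes, both of H4. The models differ in what follows. In 21 genes the model stopped within 100 bases after the stem-loop, the short form, among them Hist1h2ag, Hist1h2ao and Hist1h2ap. In 22 it went on for longer, up to 4884 bases in Hist1h1d and 330 in Hist1h4i, so reads past the stem-loop are counted as well. Single exons make up 62 of the 67 models.

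Copies of these genes are so alike that reads cannot always be given to 1 of them. Transcripts were compared by their stretches of 50 bases, on either strand. In 30 of the 67 genes at least 50% of the stretches occur in another member, and in 12 under 10% do. Of the stretches of Hist1h2ao 93.5% lie in Hist1h2ap, and every stretch of Hist2h2aa2 lies in Hist2h2aa1. The count of Hist1h2ao over that of Hist1h2ap was 0.915 to 0.979 in the 8 libraries. By contrast Hist1h1c (8.54% shared), Hist2h2be (0% shared) and Hist4h4 (0% shared with another member) can be told from the other members. Hist1h4i shares 28.9%. Overlaps add to this: Hist1h2be has a model of 37455 bases that overlaps Hist1h1e, and Hist3h2a overlaps Trim17. H2A genes also carry a short antisense model inside them, described with the H2A results.

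Levels were compared between genes as CPM (counts scaled to the library size by TMM) per kb of genomic span, averaged over the 8 libraries. H2A genes were the most abundant: Hist1h2ap had 298.8, Hist1h2ao 287.5 and Hist1h2ag 67.3 CPM per kb. The highest gene of H1 was Hist1h1c, a linker histone of somatic cells, at 61.0 CPM per kb, and the next, Hist1h1b, was at 1.05. The highest of H4 was Hist1h4i at 28.3 CPM per kb, followed by Hist1h4n at 2.81. H2B reached 7.43 CPM per kb in Hist3h2ba, and H3 2.46 in Hist1h3c. The order in H2B follows from the length used, since Hist1h2bc, whose span includes an intron, had 2.68 CPM per kb of span and 20.2 per kb of spliced transcript. The median gene had 1.3 CPM per kb, so a handful of genes carried the family. Together Hist1h2ao and Hist1h2ap held 46.7% of the 172008 counts of the family, and the 5 genes with the most counts (these, Hist1h1c, Hist1h2ag and Hist1h2bc) held 69.7%. Reads of sequence shared between copies may be counted on each, so these shares may hold some reads more than once.

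**Figure D1:**
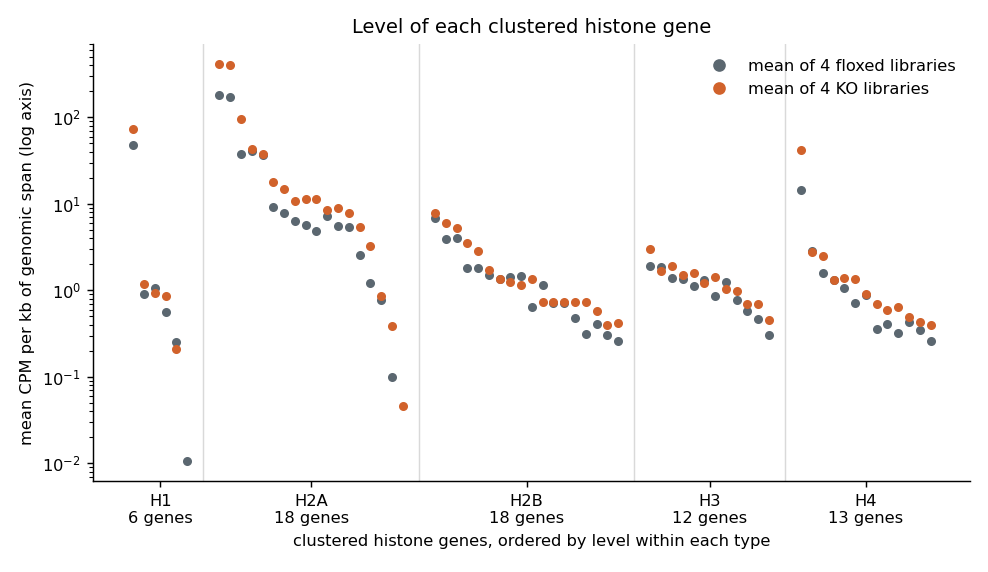
Mean CPM per kb of genomic span (log axis) of the clustered histone genes, ordered by level within each type, with grey points for the mean of 4 floxed and orange points for the mean of 4 KO libraries. Hist1h2ap and Hist1h2ao lead H2A, and 1 gene each stands far above the rest in H1 (Hist1h1c) and H4 (Hist1h4i); means of 0 are not drawn.

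The genes known from testis were close to absent. Hist1h1t, the linker histone of spermatocytes, had 1 count in the 8 libraries, in floxed replicate 5. Hist1h2aa had 2 counts, both in KO replicate 4. Hist1h2ba had 38 counts, between 0.0355 and 0.359 CPM. Of its stretches 38.2% lie in Hist1h2br, and whether its counts are reads of another copy was not tested. A count of 0 allows up to 3 counts, which is 0.0567 to 0.128 CPM depending on the library, for counting error only. These 3 genes fell below the filter on low counts, as did Hist2h2ab, Hist1h2bm and Hist1h4f, which left 61 of the 67 for the test.

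The libraries were not alike in ways that touch these genes. Gene counts summed to 23412841 to 44874879 per library. Haemoglobin genes held 2.85% to 7.67% of them in floxed and 12.2% to 24.3% in KO libraries. Libraries numbered 4 and 5 differed from those numbered 1 to 3 in both genotypes, a split that was seen in the counts and is not in the labels, and floxed replicate 3 stood apart within its genotype. The deleted gene, Ociad1, had 31.4 to 66.9 CPM in floxed and 11.7 to 19.7 CPM in KO libraries (log2 fold change -1.58, adjusted p = 0.0249, edgeR's quasi-likelihood test). Of the markers of stem cells, Kit had 56.0 CPM and Procr 0.344 CPM in floxed libraries on average.

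Summed over the 67 genes, the family was higher in every KO library than in every floxed library. The sum was 401.1, 493.3, 420.6 and 462.9 CPM in floxed replicates 1, 3, 4 and 5. It was 864.8, 792.3, 804.2 and 792.1 CPM in KO replicates 2, 3, 4 and 5. The groups lay far apart next to their own spread, with means of 444.5 ± 41.5 and 813.4 ± 34.7 CPM (SD, n = 4), a ratio of 1.83. Within replicate numbers 1 to 3 the ratio was 1.85, and within 4 and 5 it was 1.81. The sum is set by the few abundant genes and may count reads of shared sequence on each copy, and no test was made of it. In bulk RNA, more cells with these mRNAs and more of them per cell cannot be told apart.

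**Figure D2:**
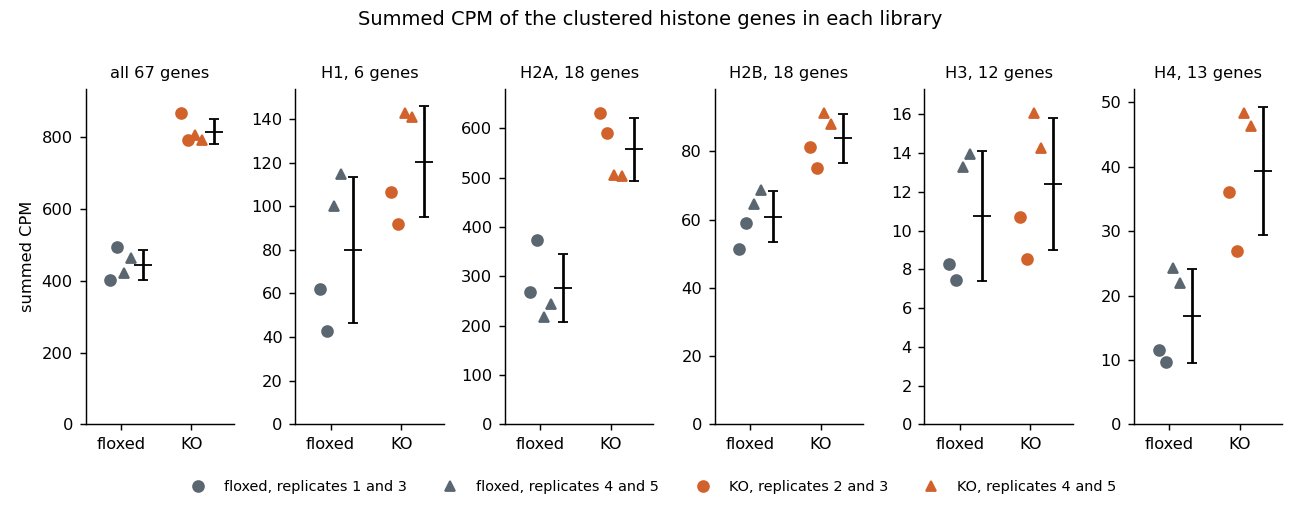
Summed CPM of all 67 clustered histone genes and of each type in every library, with circles for replicates 1 to 3 and triangles for replicates 4 and 5, and black marks for mean and SD of the 4 libraries of a genotype. The KO libraries lie above the floxed libraries for the whole family, H2A, H2B and H4, and overlap them for H1 and H3.

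Gene by gene, most fitted changes were upward in KO, but few passed the test. Of the 61 genes tested, 51 (83.6%) were fitted higher in KO, where 49.6% of all 21902 genes tested were, and the median log2 fold change was 0.50 against -0.0059 over all genes. Every KO library was above every floxed library in 8 of the 61 (13.1%), against 7.1% of all genes, and the opposite held in 0 of the 61, against 7.67%. Of the 8 genes, 6 were among 30 tested that share at least 50% of their stretches with other members. Another 2 were among 21 that share 10% to 50%, and 0 were among 10 that share under 10%. Reads may be counted on more than 1 copy, so the 8 may not be separate cases. Among the 10 that share under 10%, 8 were fitted higher, with a median log2 fold change of 0.37. At an adjusted p under 0.05 (edgeR's quasi-likelihood test, Benjamini-Hochberg over all genes tested), 1 gene rose, Hist1h2ag (1.64% of the 61, against 1.22% of all genes), and 0 fell (against 1.75%). At an unadjusted p under 0.05, 8 were higher (against 9.63% of all genes) and 0 lower (against 12.1%). Adding the study's second threshold, a change beyond 1.5 on the log2 scale in either direction, left 0 members, against 1.19% of all genes. The share of single genes past the test was thus near the background. DESeq2's Wald test gave 7 genes higher at an adjusted p under 0.05 (11.5%, against 5.1% of all genes), 1 of them past both thresholds (against 2.32%). Without floxed replicate 3, 8 were higher at an adjusted p under 0.05 by edgeR (13.1%, against 8.91% of all genes), 5 of them past both thresholds (against 3.88%). With the replicate number as a block over replicates 3, 4 and 5, 0 members passed, against 0.13% of all genes higher.

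**Figure D3:**
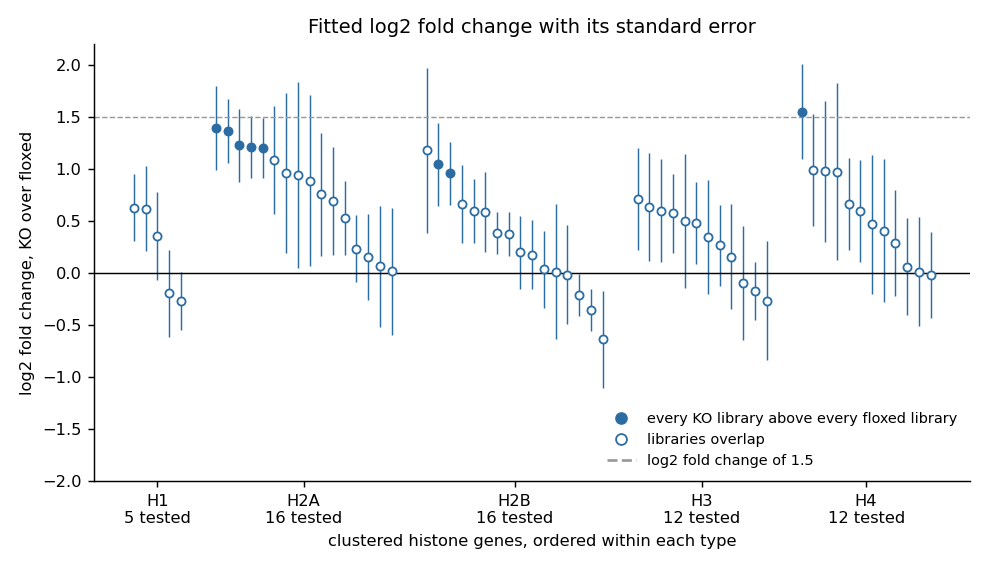
Fitted log2 fold change (KO over floxed) of the 61 genes tested, ordered within each type, with the standard error as bars. Filled points mark the 8 genes whose KO libraries all lie above the floxed libraries (5 of H2A, 2 of H2B and 1 of H4), and 10 genes lie below 0.

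Among H1 genes, 3 of 5 were fitted higher and 2 lower, and 0 passed the test. Hist1h1c had 57.8, 36.8, 95.0 and 110.0 CPM in floxed replicates 1, 3, 4 and 5. It had 101.3, 88.2, 137.4 and 135.2 CPM in KO replicates 2, 3, 4 and 5. The groups overlapped, libraries 4 and 5 were the higher ones in both genotypes, and each KO library was above the floxed libraries on its side of that split. The log2 fold change was 0.63 (standard error 0.32, adjusted p = 0.297, edgeR), 1.003 within numbers 1 to 3 and 0.41 within 4 and 5. With a term for numbers 4 and 5 in the fit it was 0.71 and passed (adjusted p = 0.0255), and the range of adjusted p over the alternatives run was 0.0255 to 0.556. The other H1 genes were scarce. Hist1h1b, a subtype of dividing cells, had 0.307 to 1.06 CPM in floxed and 0.780 to 0.942 CPM in KO libraries (log2 fold change 0.36, standard error 0.42). Hist1h1e had 1.002 to 2.80 and 0.832 to 2.43 CPM (log2 fold change -0.19, standard error 0.42), and its model overlaps that of Hist1h2be.

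H2A was the type in which all 16 genes tested were fitted higher in KO, with a median log2 fold change of 0.92. Of these, 5 had KO libraries all above floxed libraries and 1 passed the test. Hist1h2ag had 19.3, 29.5, 11.7 and 12.5 CPM in floxed replicates 1, 3, 4 and 5. It had 60.5, 50.7, 36.3 and 40.8 CPM in KO replicates 2, 3, 4 and 5. The lowest KO library stood above the highest floxed library, floxed replicate 3, by less than the groups' own spread. The means were 18.3 ± 8.21 and 47.1 ± 10.8 CPM (SD, n = 4). The fitted change was 1.36 on the log2 scale, with a standard error of 0.31 (adjusted p = 0.0485, edgeR). With the replicate number as a block over replicates 3, 4 and 5 of both genotypes, the log2 fold change was 1.38 and the test was not passed (adjusted p = 0.0909). Over the alternatives run, the adjusted p of Hist1h2ag ranged from 0.000637 to 0.126 and was under 0.05 in 7 of 16. Leaving out any 1 library other than floxed replicate 3 also ended the call, at log2 fold changes of 1.21 to 1.51.

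Hist1h2ap and Hist1h2ao gave nearly the same values as each other, and their shared sequence does not let reads tell them apart. Hist1h2ap had 90.0, 141.4, 56.5 and 60.6 CPM in floxed replicates 1, 3, 4 and 5. It had 226.0, 215.8, 187.2 and 174.4 CPM in KO replicates 2, 3, 4 and 5. Floxed replicate 3 was again the highest floxed library, and replicates 4 and 5 were the lowest of both genotypes. The log2 fold change was 1.20 (standard error 0.29, adjusted p = 0.0537, edgeR), and for Hist1h2ao it was 1.21 (standard error 0.30, adjusted p = 0.058). Both had an adjusted p under 0.05 without floxed replicate 3 (0.00144 and 0.00135). The scarce genes Hist1h2af (log2 fold change 1.23) and Hist1h2ak (1.39) also had KO libraries above floxed libraries, at 1.24 to 3.50 against 4.08 to 4.86 CPM and 0.298 to 0.775 against 0.871 to 1.56 CPM. All of these except Hist1h2ak belong to a set of 11 H2A genes of the Hist1 cluster linked by shared sequence. Genes were linked where at least 50% of the stretches of 1 gene lie in the other. Hist1h2ak fell outside by that rule, with 43.3% of its stretches in Hist1h2ap. Taking all members together, 52.3% of its stretches are shared, so its counts may include reads of other copies. When the counts of these 11 were summed to 1, the set had 133.4 to 355.5 CPM in floxed and 409.7 to 588.5 CPM in KO libraries. Its log2 fold change was 1.19 (standard error 0.32, adjusted p = 0.0708, edgeR), and 1.55 without floxed replicate 3 (adjusted p = 0.00342).

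**Figure D4:**
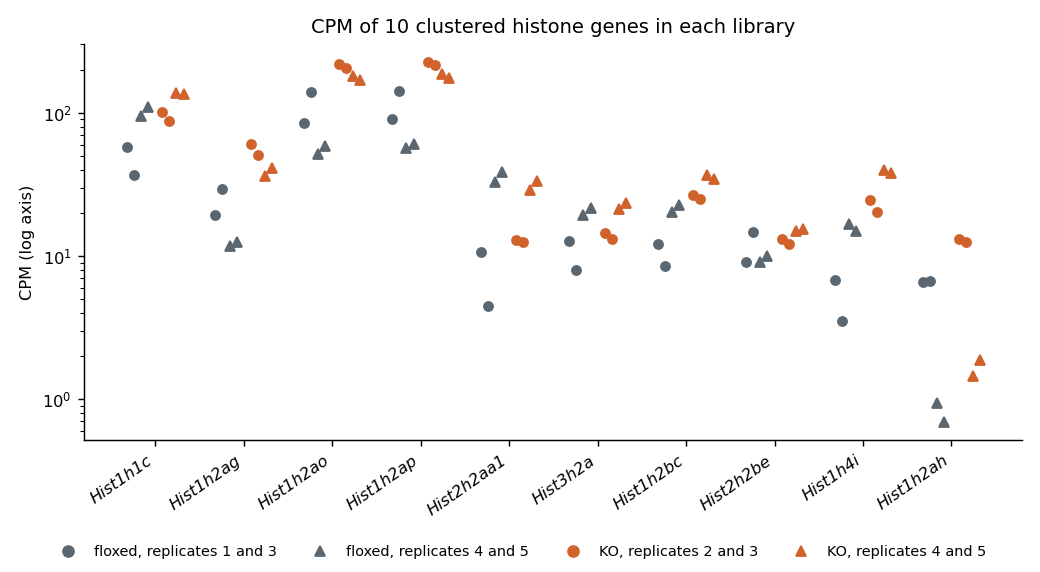
CPM (log axis) of 10 clustered histone genes in every library, grey for floxed and orange for KO, with circles for replicates 1 to 3 and triangles for replicates 4 and 5. Hist1h2ag, Hist1h2ao, Hist1h2ap, Hist1h2bc and Hist1h4i separate the genotypes, and Hist2h2aa1, Hist3h2a and Hist1h2ah separate the replicate numbers.

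The Hist2 copies of H2A were ordered by replicate number. Hist2h2aa1 had 10.7, 4.46, 33.1 and 38.6 CPM in floxed replicates 1, 3, 4 and 5. It had 13.0, 12.6, 28.7 and 33.2 CPM in KO replicates 2, 3, 4 and 5. The libraries numbered 4 and 5 were above all others whatever the genotype, and the log2 fold change between genotypes was 0.02 (standard error 0.61, adjusted p = 0.992, edgeR). Hist2h2aa2, which cannot be told from it, gave 0.06 (standard error 0.58). Hist3h2a had 7.92 to 21.8 CPM in floxed and 13.2 to 23.4 CPM in KO libraries, with the same order by number (log2 fold change 0.23, standard error 0.32). Reads of Trim17, which it overlaps, may be part of its count.

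In 7 H2A genes of the Hist1 cluster the order by number was the opposite, at 1.82 (Hist1h2ae) to 7.85 times (Hist1h2ah) the mean CPM in numbers 1 to 3 as in 4 and 5. Over the family, every library numbered 1 to 3 was above every library numbered 4 or 5 in 7 of 61 genes (11.5%), all of H2A, against 13.3% of all genes, and below in 7 (11.5%), against 12.5%. Hist1h2ah, for example, had 6.62, 6.68, 13.2 and 12.4 CPM in floxed replicates 1 and 3 and KO replicates 2 and 3. In floxed replicates 4 and 5 it had 0.935 and 0.690 CPM, and in KO replicates 4 and 5 it had 1.46 and 1.88 CPM. The KO library means were higher on both sides of the split, with log2 ratios of 0.95 and 1.04. With a term for numbers 4 and 5 in the fit, 10 of the 16 H2A genes had an adjusted p under 0.05, and 13 of 61 in the whole family (21.3%, against 8.88% of all genes higher in KO in that fit), 1 of them past both thresholds (against 2.38%).

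The annotation places a short model on the opposite strand, of type miRNA and of 129 to 144 bases inside 17 of the H2A genes. These models had 38.3% to 91.4% as many counts as their H2A gene in the 16 genes with over 100 counts. The counts were therefore read as not separating strands, and the models as windows that show where in a gene the reads lie. This reading takes reads of the window as counted on the gene as well, which was not tested. In Hist1h2ap the window held 48.3% of the counts of the gene and in Hist1h2ao 48.5%. In Hist1h2ab it held 91.4% and in Hist1h2ai 90.9%, although it covers 29.2% and 35.1% of their spans, and every stretch of these windows occurs in another gene. The order by number could differ inside and outside the window. In Hist1h2ae every library numbered 1 to 3 was above 4 and 5 in the window, and every one was below them outside it, at 0.607 and 0.719 CPM in floxed replicates 1 and 3 against 1.91 and 1.92 CPM in floxed replicates 4 and 5. In Hist1h2ah, Hist1h2ad and Hist1h2an every library numbered 1 to 3 was above 4 and 5 both in the window and outside it, and in Hist1h2ac outside it, with overlap in the window. Which copy gave the reads was not tested. Between genotypes, every KO library was above every floxed library in the window in 4 of the 16 genes and outside it in 1, Hist1h2ap, at a ratio of the means of 2.31 outside it. Outside the window Hist1h2ag overlapped (16.5 CPM in KO replicate 4 against 18.5 CPM in floxed replicate 3), and so did Hist1h2ao (78.4 CPM in KO replicate 5 against 79.8 CPM in floxed replicate 3).

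**Figure D5:**
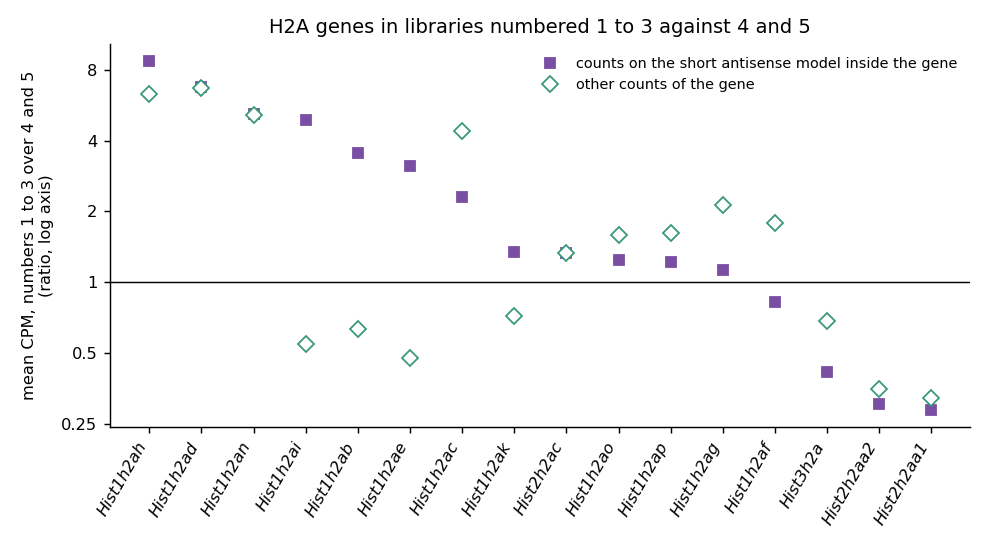
Ratio of mean CPM in the 4 libraries numbered 1 to 3 over the 4 numbered 4 and 5 (log axis) for 16 H2A genes, for counts on the short antisense model inside the gene (squares) and for the other counts of the gene (diamonds). The 2 ratios lie on opposite sides of 1 for Hist1h2ai, Hist1h2ab, Hist1h2ae, Hist1h2ak and Hist1h2af, and on the same side for the other 11.

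H2B genes were fitted higher in 12 of 16 and lower in 4, with a median log2 fold change of 0.29, and 0 passed the test. Hist1h2bc had the most counts. It had 12.1, 8.51, 20.4 and 22.6 CPM in floxed replicates 1, 3, 4 and 5. It had 26.8, 25.04, 36.7 and 34.7 CPM in KO replicates 2, 3, 4 and 5. All KO libraries were above all floxed libraries (log2 fold change 0.96, standard error 0.30, adjusted p = 0.107, edgeR), over a model that spans 8710 bases and includes an intron. Hist1h2bn, the other H2B gene without overlap, had only 104 counts in all. Hist2h2be, which shares no stretch with another member, had 9.07, 14.6, 9.01 and 9.93 CPM in floxed and 13.2, 12.1, 14.9 and 15.5 CPM in KO libraries. Floxed replicate 3 alone lay among the KO values, and the change of 0.38 on the log2 scale (standard error 0.20, adjusted p = 0.307, edgeR) became 0.59 without it (adjusted p = 0.0272). Hist1h2bg had 1.69 to 3.95 and 3.31 to 4.19 CPM (log2 fold change 0.60, standard error 0.31). Hist3h2ba had 2.45 to 6.09 and 3.56 to 6.10 CPM (log2 fold change 0.20, standard error 0.35) and followed the replicate numbers, as its neighbour Hist3h2a did. With the 11 H2B genes of a set linked by shared sequence summed to 1, the log2 fold change was 0.52 (standard error 0.15, adjusted p = 0.0824, edgeR), with 38.0 to 49.8 CPM in floxed and 56.8 to 67.5 CPM in KO libraries.

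H3 was the type with the lowest top level per kb, and its summed CPM overlapped between genotypes. Of 12 tested, 9 were fitted higher and 3 lower, 0 passed the test, and KO and floxed libraries overlapped in all 12. Hist1h3c had 0.369 to 1.998 CPM in floxed and 0.962 to 2.80 CPM in KO libraries (log2 fold change 0.64, standard error 0.52). Hist2h3c1 had 1.95 to 4.64 and 2.84 to 3.19 CPM (log2 fold change -0.17, standard error 0.28), and it may share reads with the overlapping model Gm20634. Hist2h3b had 0.211 to 1.23 and 0.390 to 1.53 CPM (log2 fold change 0.50, standard error 0.65). These 3 genes had 197 to 843 counts in all, and their differences were within about 1.5 standard errors of 0. Summed over the 12 genes, H3 had 7.45 to 14.0 CPM in floxed and 8.53 to 16.0 CPM in KO libraries.

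Among H4 genes, Hist1h4i had the largest fitted change of the family. It had 6.80, 3.52, 16.8 and 14.8 CPM in floxed replicates 1, 3, 4 and 5. It had 24.6, 20.2, 39.6 and 38.1 CPM in KO replicates 2, 3, 4 and 5. The groups did not overlap, and replicates 4 and 5 were the higher ones in both. The means were 10.5 ± 6.36 and 30.6 ± 9.71 CPM (SD, n = 4), with a fitted change of 1.55 on the log2 scale, standard error 0.46 (adjusted p = 0.0901, edgeR). The log2 ratio of the means was 2.12 within numbers 1 to 3 and 1.30 within 4 and 5. The adjusted p ranged from 0.00371 to 0.257 over the alternatives run and was under 0.05 in 3 of 16, those with DESeq2, with the term for numbers 4 and 5 and without floxed replicate 3. The other 11 H4 genes tested were scarce and overlapped between genotypes. Hist1h4m had 0.284 to 0.893 and 0.639 to 1.16 CPM (log2 fold change 0.66, standard error 0.44). Hist1h4n, which shares 85.6% of its stretches with other members, had 0.530 to 1.96 and 0.870 to 1.44 CPM (log2 fold change -0.02, standard error 0.42). Hist4h4, alone on chromosome 6, had 0.316, 1.80, 1.11 and 0.460 CPM in floxed and 2.64, 1.17, 1.85 and 1.74 CPM in KO libraries (log2 fold change 0.99, standard error 0.54, adjusted p = 0.322).

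By cluster, the 54 Hist1 genes summed to 312.0 to 452.5 CPM in floxed and 671.1 to 797.9 CPM in KO libraries. The 10 Hist2 genes summed to 28.4 to 93.2 and 43.3 to 90.4 CPM, and the 2 Hist3 genes to 10.6 to 27.9 and 16.8 to 28.9 CPM. The genotypes were apart in Hist1 and overlapped in Hist2 and Hist3. In Hist2 and Hist3 the libraries numbered 4 and 5 were above all others. Genes whose model stops at the stem-loop had a median log2 fold change of 0.66 over 19 tested, those whose model goes on 0.37 over 21, and those without a stem-loop match in the model 0.48 over 21. The difference between these medians was not tested.

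Hist1h2ag and Hist1h4i are neighbours on chromosome 13, and Hist1h2ag starts back to back with Hist1h2bj. Their promoters are shown because these genes had the smallest adjusted p and the largest fitted change of the family, and because they differ in make-up. Promoters (250 bases before and 50 after the start) came from RefSeq (GRCm38.p6), where 61 of the 67 genes were matched. They were searched on both strands for the CCAAT box, for the octamer ATTTGCAT and for the TATA box as the letters TATAAA. The box and the octamer may share letters, and matches are in capitals below.
Hist1h2ag (chr13:22042900-22043199, minus strand): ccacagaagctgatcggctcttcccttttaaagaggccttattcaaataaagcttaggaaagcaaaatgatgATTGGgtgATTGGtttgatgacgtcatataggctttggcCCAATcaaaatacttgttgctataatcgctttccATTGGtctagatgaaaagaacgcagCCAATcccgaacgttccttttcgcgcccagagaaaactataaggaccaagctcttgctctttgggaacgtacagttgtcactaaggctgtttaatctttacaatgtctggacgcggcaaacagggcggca
Hist1h4i (chr13:22041313-22041612, minus strand): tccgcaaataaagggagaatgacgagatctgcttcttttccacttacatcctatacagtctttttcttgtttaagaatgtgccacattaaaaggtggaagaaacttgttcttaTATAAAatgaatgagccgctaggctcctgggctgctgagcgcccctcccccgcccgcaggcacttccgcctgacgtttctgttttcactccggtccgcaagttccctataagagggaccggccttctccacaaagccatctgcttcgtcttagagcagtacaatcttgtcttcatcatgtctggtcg

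The window of Hist1h2ag holds 5 CCAAT matches and that of Hist1h4i none. This followed the types. CCAAT, the box bound by NF-Y, was in all 17 H2A, all 16 H2B, all 10 H3 and all 6 H1 promoters matched, but in 3 of 12 of H4 (25%). It was in 85.2% of the family and 37.4% of all 32851 promoters of this length. Matches at 2 or more places were in all H2A and H2B promoters and in 11.7% of all promoters. The octamer, bound by OCT1, was in 41.2% of H2A, 37.5% of H2B and 0 of the H1, H3 and H4 promoters, against 1.74% of all. TATAAA was in 57.4% of the family and 13.6% of all. Divergent H2A and H2B genes share much of their window, so these counts are not independent. A match is a run of letters and was not tied to binding or to the changes above.

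The genes around the family gave few calls. Of 19 genes for transcription, processing and decay of these mRNAs, 6 were fitted higher and 0 passed the test in either direction. Slbp had 67, 104.2, 72.3 and 48.4 CPM in floxed and 117.5, 137.5, 108.0 and 94.5 CPM in KO libraries. Floxed replicate 3 alone overlapped the KO values (log2 fold change 0.65, standard error 0.23, adjusted p = 0.147, edgeR, and 0.014 without that library). Npat had 15.3 to 48.0 and 15.6 to 20.4 CPM (log2 fold change -0.48, standard error 0.35), the top value being again floxed replicate 3. Of 17 histone chaperones, which carry and deposit histones, 14 were fitted higher and 0 passed. Of 25 genes of DNA replication and the cell cycle, 24 were fitted higher, with a median log2 fold change of 0.46, 4 without overlap, and 0 passed. Beside the counts of these lists, 49.6% of all genes tested were fitted higher in KO. Every KO library was above every floxed library in 7.1% of all genes, 1.22% passed as higher and 1.75% as lower. These lists were chosen with results of these data known, and their genes share the libraries of the family.

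Histone variants come from genes elsewhere, and many are made outside S phase with poly(A) mRNAs. The form and timing of the mRNAs were not examined for the 11 genes listed, H2afx among them. Of these 11 genes 8 were fitted higher (against 49.6% of all genes tested), and 1 rose (against 1.22%). The gene that rose was H2afv, which codes for an H2A.Z protein, with 42.5 to 46.3 CPM in floxed and 61.2 to 71.2 CPM in KO libraries. Its log2 fold change was 0.60 (standard error 0.12, adjusted p = 0.0381, edgeR, and 0.167 with the replicate block). H2afz, the other H2A.Z gene, had 66.4 to 110.9 and 84.0 to 142.6 CPM (log2 fold change 0.33, standard error 0.23). H2afx, whose product is phosphorylated at DNA breaks, had 173.1, 200.7, 476.2 and 580.3 CPM in floxed and 407.0, 340.5, 934.2 and 956.4 CPM in KO libraries. Its values followed the replicate numbers as well as the genotype (log2 fold change 0.88, standard error 0.48, adjusted p = 0.323). The H3.3 genes did not pass the test, at log2 fold changes of -0.00071 (H3f3a, standard error 0.20, 349.9 to 517.4 and 361.4 to 531.4 CPM) and 0.35 (H3f3b, standard error 0.20, 291.4 to 337.3 and 326.8 to 518.5 CPM). H1f0, the linker histone of resting and differentiated cells, had 41.4 to 58.0 and 48.1 to 66.6 CPM (log2 fold change 0.21, standard error 0.17).

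Markers of other blood cells moved with the genotype, and their part in the histone values was not tested. For comparison, 49.6% of all genes tested were fitted higher in KO, 1.22% rose and 1.75% fell at an adjusted p under 0.05 (edgeR). In 7.1% of all genes every KO library was above every floxed library. All 12 erythroid markers were fitted higher in KO, 4 rose and 8 had no overlap, with a summed level of 27950 to 70590 CPM in floxed and 122500 to 295300 CPM in KO libraries and none at 0. Among them Hba-a1 had a log2 fold change of 2.32 (adjusted p = 0.0396), Hbb-bt 2.16 (0.0321) and Gata1, a factor of erythroid and megakaryocyte cells, 1.67 (0.0372), all by edgeR. All 6 megakaryocyte markers were fitted higher and 5 rose, summing to 34.8 to 87.1 and 176.9 to 190.4 CPM, with Pf4 at 2.27 (adjusted p = 0.00534), Itga2b at 1.27 (0.00804) and Gp1ba at 1.59 (0.0258). Of 11 B and plasma cell markers 2 rose, Vpreb1 (log2 fold change 1.66, adjusted p = 0.0266) and Cd79a (0.81, 0.0408), and Jchain fell (-1.66, 0.0239), with sums of 576.3 to 699.7 and 661.6 to 703.8 CPM. With the replicate block 0 of the erythroid and 0 of the B and plasma cell markers passed (Hba-a1 0.175, Hbb-bt 0.161, Gata1 0.142, Vpreb1 0.119, Cd79a 0.151 and Jchain 0.138 as adjusted p, edgeR), and 1 of the 6 megakaryocyte markers did, Pf4 (0.0162), against 0.0887 for Itga2b and 0.0953 for Gp1ba. Of the 12 myeloid markers 1 was fitted higher in KO (median log2 fold change -0.56), and their sums overlapped (18810 to 59390 against 28180 to 34590 CPM). Of the 6 T and NK markers 1 was fitted higher (median log2 fold change -0.66). Their sum was lower in every KO library than in every floxed library (58.9 to 78.9 CPM in floxed against 41.5 to 44.6 CPM in KO). Both lists had 0 calls, and no marker of any list was at 0 in all libraries. With the haemoglobin genes left out before scaling, the summed CPM of the family kept a log2 ratio of 0.86, against 0.87 with them. That step changes only the scaling and leaves the counts of the family as they were, so it does not test what other cells contributed.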

How the data were processed

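The authors used FastQC, Trim Galore and Bowtie2 with GRCm38/mm10 transcripts as the reference, and deposited whole-number counts per transcript, without normalization, for 138930 transcripts. Tool versions, the counter, the annotation release and the strand setting are not given in the sources used here. Libraries were made from 100 ng of total RNA with the NEBNext Ultra kit. All deposited values were checked to be whole numbers. GENCODE M21 held 138789 of the transcripts. Each gene was counted by its transcript with the largest sum over all libraries. Overlapping models and shared sequence may let reads enter more than 1 count, so shares and sums may count some reads more than once. Since the counter is not given, this could not be checked. Levels per kb use the genomic span of that transcript, which is its length in the 62 genes with 1 exon. The length of the spliced transcript was added as an alternative after seeing the data.

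Genes passing filterByExpr by genotype (21902) were scaled by TMM and tested with edgeR 4.0.16 in R 4.3.3 (quasi-likelihood test, Benjamini-Hochberg over all genes tested). The scripts were tested on simulated data in which 200 genes were changed by 2.5 on the log2 scale. At both thresholds edgeR recovered 83.5% of them, and 5.11% of its calls were false. DESeq2's test recovered 91%, and 16.9% of its calls were false. The simulated counts had no split by replicate number, and their changes were larger than any fitted in the family. These rates may therefore not hold for the real libraries. The study's thresholds were used. The alternatives were DESeq2 1.42.0, its size factors, no filter, sums over transcripts, the shortest span, the replicate number as a block, a term for numbers 4 and 5, haemoglobin genes left out and each library left out. Copies summed to 1 count were added after seeing the data. Same-numbered libraries, which are different mice, deviated together (correlations of 0.374, 0.394 and 0.579 for numbers 3, 4 and 5, which come from the labels), so the numbers were taken to pair them. Differently numbered libraries on the same side of the split between numbers 1 to 3 and 4 to 5 did so as well (correlations of 0.346 to 0.603), so the check does not tell pairing by number from that split. Replicates are separate mice.

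The members and the other gene lists were chosen with earlier results of these data known. Named by rule were Ociad1, members with an adjusted p under 0.05 (at most 25), the 3 members of each type with the highest CPM per kb, Hist1h1t, Hist1h2aa, Hist1h2ba, Hist3h2a, Hist3h2ba, Hist4h4, Slbp, Npat, H2afz, H2afx, H3f3a, H3f3b, H1f0 and, of each other list, up to 3 genes with the smallest adjusted p under 0.05. Other genes named, such as Hist1h2af, Hist1h2bc, Hist1h2ah, Hist2h2aa1, Kit and Procr, were chosen after their values were seen. Pseudogenes were left out. The list of stem cell markers is not reported here beyond Kit and Procr.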

Additional observations from a re-analysis of the deposited data

Results flagged for a closer look

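In 84 groups of 4 libraries, each a gene named by the rule or a summed level in 1 genotype, 3 had a library far from the others by Dixon's ratio at its 95% critical value, where chance gives about 1 in 20 groups, or 4.2. Hist2h2be had 14.6 CPM in floxed replicate 3 against 9.01 to 9.93 CPM in the other floxed libraries. The summed CPM of the 67 genes was 864.8 in KO replicate 2 against 792.1 to 804.2 in the other KO libraries, all above the floxed range. Hba-a1 had 7132 CPM in floxed replicate 1 against 16100 to 17060 CPM in the other floxed libraries.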

How the results depend on the processing

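The summed CPM of the family kept its direction and size under every alternative run for it (log2 ratio 0.83 to 0.93 with a library left out, 0.87 with all), and single genes rested on the fit. Genes with an adjusted p under 0.05, 1 with all libraries, numbered 7 with DESeq2's test, 2 with DESeq2's size factors or without haemoglobin genes, 3 with no filter or with sums over transcripts, 13 with the term for numbers 4 and 5, and 0 with the shortest span, with the replicate number as a block or with copies summed. With a library left out there were 0 to 8, the 8 without floxed replicate 3 and 0 without any other. Genes past both thresholds, 0 with all libraries, numbered 1 with DESeq2's test and with that term and 0 to 5 with a library left out, the 5 again without floxed replicate 3. Genes fitted higher numbered 51, 20 of 24 with copies summed, and 46 to 52 with a library left out. The median log2 fold change of 0.50 was 0.38 with the block, 0.30 with copies summed and 0.40 to 0.56 with a library left out. Genes with KO libraries all above floxed libraries numbered 8, and 8 to 14 with a library left out, the 14 without KO replicate 3. The sets of copies past the test numbered 0, and 2 without floxed replicate 3. The block, over 3 of the 4 libraries of each genotype, moved all calls to 0 in a fit where 0.13% of all genes were higher. Over 16 alternatives for 17 named genes, 235 of 272 values kept direction and side of the test, 17 gained and 9 lost it, all 9 for Hist1h2ag, and 11 changed sign, in 3 genes near 0. Hist1h4n changed from -0.02 to 0.0064 with no filter, 0.0529 with the block, 0.0153 with sums, 0.0413 with the term and 0.0058 with the shortest span, Hist1h1e to 0.0504 without KO replicate 3 and 0.0117 without floxed replicate 3, and Hist2h3c1 to 0.0039 without floxed replicate 4. Leaving out a library gave -0.27 to 0.31 for Hist1h4n, -0.40 to 0.0504 for Hist1h1e and -0.36 to 0.0039 for Hist2h3c1. The causes were not tested. Most H3 and H4 genes lie near 1 CPM, and the effect of depth on their calls was not tested.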

Other observations

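Protein-coding status decides membership, and 3 annotated pseudogenes carry symbols of the clusters. Hist1h2aj and Hist3h2bb-ps lie beside members, and Hist1h2al lies apart from the Hist1 cluster on chromosome 13 (GRCm38, chr13:51202727-51203065). Hist1h2aj had 0.340 to 3.84 CPM in floxed and 2.32 to 7.05 CPM in KO libraries (log2 fold change 1.16, standard error 0.63, adjusted p = 0.319, edgeR's quasi-likelihood test). Hist1h2al had 0.170 to 5.33 and 3.33 to 8.84 CPM (log2 fold change 0.92, standard error 0.76, adjusted p = 0.527), with its lowest value in floxed replicate 3. Hist3h2bb-ps had at most 0.265 CPM in any library and was not tested.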
